A study of Homo sapiens with 4 samples.

Results

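The genes of histone acetylation, corepressors and chromatin remodelling make up a list of 58 human genes that add, remove or read acetyl groups on histones or use ATP to move nucleosomes. Their H4K20me1 was read from the peaks of the deposited table that carry the symbol of 1 of these genes and that the authors' annotation does not call distal intergenic. That rule gave 200 of 25514 peaks, or 200 of the 19703 peaks that are not distal intergenic, and 45 of the 58 genes had at least 1 of them. H4K20me1, histone H4 with a single methyl group on lysine 20, is written by the methyltransferase KMT5A, also named SETD8.

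The mark was profiled by CUT&Tag, in which an antibody tethers a transposase to chromatin so that the DNA around the mark is cut out and sequenced. The cells were Kasumi-1, a human acute myeloid leukemia line that carries the RUNX1-RUNX1T1 fusion. Labels give 4 libraries of 100000 cells: 2 of SETD8 knockout cells, made with CRISPR/Cas9 and titled sgSETD8, and 2 of cells titled sgNT, whose genotype is given as WT, all grown in the same medium. In each group 1 title adds #2, and the titles do not say whether that means another guide or a repeat. The table holds 1 value per group and peak, so no spread between libraries could be had, and whether the knockout cells were a clone or a pool is not given in the sources used here. Values are called first-listed and second-listed, because the columns carry only numbers. The deposited comparison is named treated against control, by which the knockout would come first, but no header states the order. All differences are on the log2 scale and run first-listed minus second-listed.

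Acetyltransferases such as CREBBP and EP300 place acetyl groups on histone tails, which bromodomain proteins of the BRD family bind. Deacetylases remove them, and they mostly act inside corepressor complexes built on NCOR1, SIN3A or RCOR1. The RUNX1-RUNX1T1 protein of this leukemia is known to recruit NCoR and SIN3 complexes with their deacetylases. H4K20me1 itself is known to lie broadly over the bodies of transcribed genes and to change in amount over the cell cycle.

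Peaks of these genes were deeply covered but differed little between the groups. The 200 peaks held 40745 first-listed and 39003 second-listed reads, and the median peak had 129.8 first-listed and 128.4 second-listed scaled reads. Over all peaks these medians were 72.0 first-listed and 69.07 second-listed, and over those not distal intergenic 83.87 and 78.79. Scaled reads are the reads of a peak times the authors' factor for its group. The median log2 fold change over the 200 peaks was 0.08, with quartiles of −0.11 and 0.26, beside 0.06 over all peaks and 0.09 over those not distal intergenic. Of these peaks 121 lay above 0 (60.5%, beside 58.16% of all peaks and 60.89% of those not distal intergenic), 76 below and 3 at 0. Of the 45 gene means 28 lay above 0 and 17 below. The reads summed over the 200 peaks came to 0.12 as a log2 ratio (exact 95% interval 0.10 to 0.14 from counting error alone), and the sum over all peaks gave 0.11. With both groups scaled to equal reads in peaks, each log2 fold change is lower by 0.11, and the median over the listed genes' peaks was −0.03.

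At none of these peaks did a difference pass the adjusted limit. In the authors' deposited table, made with DESeq per the submitters' processing notes, 0 of the 200 peaks had an adjusted p below 0.05, as had 0% of all peaks, and the lowest adjusted p among the 200 was 0.878. A nominal, that is unadjusted, p below 0.05 stood in the authors' deposited table for 7 of 200 peaks (3.5%), beside 5.06% of all peaks. Of these, 6 were higher in the first-listed group (3.37% of all peaks) and 1 was lower (1.69% of all peaks). A log2 difference of at least 0.5, set here as a limit for description, was reached upward by 17 peaks (8.5%), where 13.9% of all peaks and 15% of those not distal intergenic did so. Downward it was reached by 11 peaks (5.5%), beside 8.71% of all peaks and 7.03% of those not distal intergenic. Counted in both directions, 28 peaks lay past it, beside 22.6% of all peaks. Scaled to equal reads in peaks, 7 peaks lay past it upward and 16 downward, beside 8.49% and 13.2% of all peaks. These shares were not matched for signal. At or above the median signal of all peaks lay 81.5% of the 200, beside 50.17% of all peaks and 57.53% of those not distal intergenic. Whether the lower shares past 0.5 go with deeper coverage was not tested.

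**Figure D1:**
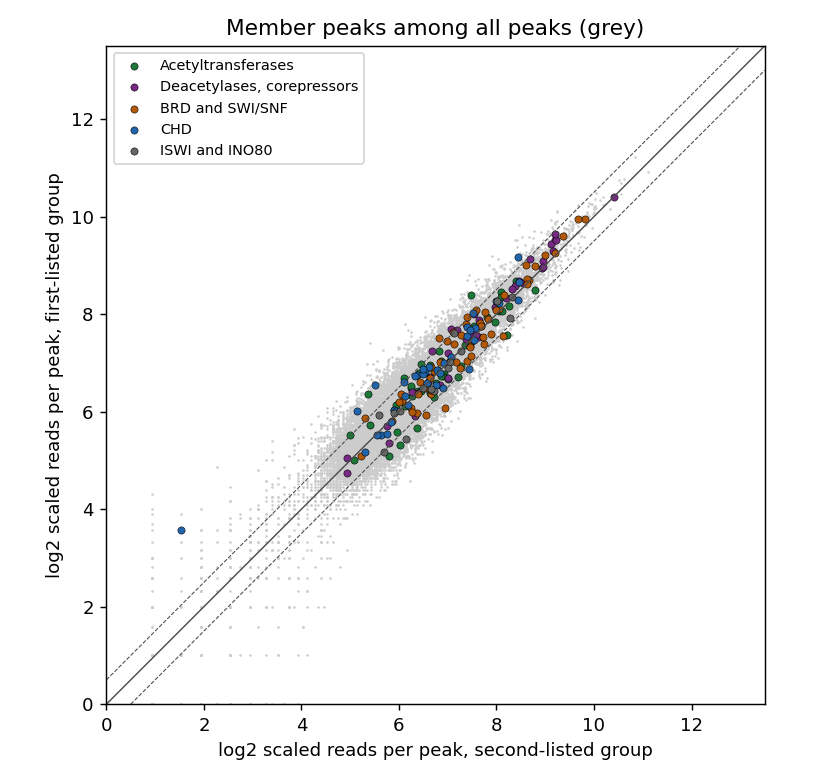
Log2 scaled reads per peak in the first-listed group (vertical axis) against the second-listed group (horizontal axis), for all 25514 peaks in grey and the 200 peaks of the listed genes in color by class. The solid line marks equal values and the dashed lines differences of 0.5 upward and downward; 172 of the 200 colored points lie between the dashed lines.

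A larger share of these genes than of all protein-coding genes had a peak. A peak was present at 77.59% of the 58 genes, against 38.83% of 20056 protein-coding genes. The listed genes are also long, with a median of 86.26 kb against 24.09 kb, and long genes had peaks more often. Within the listed genes' own quartile range of length (38.15 to 173.4 kb), 82.14% of 28 listed genes had a peak, against 51.44% of 5935 protein-coding genes. Genes with 10 or more peaks were TBL1XR1, ARID1B, CHD6, CHD7, KAT6A, KAT6B and NCOA2, or 12.07% of the list against 0.8227% of protein-coding genes. Within the same range of length that share was 3.571% of the 28 listed genes (1 gene), against 0.893% of the 5935. Of the 148 other genes of these families, with a median length of 46.52 kb, 98 had a peak by symbol. The genes were chosen with earlier results of these data known, so these shares describe the list and support nothing beyond it. No test was made of these shares, and gene activity, which was not measured, was not matched.

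The 13 genes without a peak were KAT2A and KAT8 among the acetyltransferases, HDAC1, HDAC2, HDAC3, HDAC4, HDAC8, HDAC9 and SIN3B among the deacetylases and their corepressors, BRD2, BRD7 and SMARCB1 among the BRD and SWI/SNF genes, and SMARCA5. Several of them encode core catalytic subunits: HDAC1, HDAC2 and HDAC3 are the deacetylases of the SIN3, CoREST and NCoR complexes, and SMARCA5 is the ATPase of the ISWI remodellers. HDAC2, HDAC3 and SMARCA5 each overlapped 1 peak that the table gives to a neighbouring gene, with log2 fold changes of 0.08, 0.48 and −0.18. They include long genes, HDAC9 with 915.6 kb and HDAC4 with 353.5 kb, as well as short ones such as KAT2A with 8.257 kb.

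Introns held 118 of the 200 peaks (59.0%, beside 47.06% of all peaks not distal intergenic), and promoters of up to 3 kb held 65, of which 49 lay within 1 kb of a start. Exons held 9, 5′ UTRs 3 and 3′ UTRs 5. Intron peaks had a median log2 fold change of 0.12 and promoter peaks of 0.07, beside 0.10 for all intron peaks and 0.09 for all promoter peaks.

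Near the starts of the genes the mark was more often just downstream than over the start. RefSeq promoter entries (GRCh38.p14) matched 47 of the 58 genes, and 35 of these had a peak. The window of 250 bases before the start was touched by a peak in 9 of the 35 (25.71%, against 35.77% of 6536 genes of the whole table). In 16 of 35 the nearest peak began downstream within 3 kb (45.71%, against 22.34%), at a median distance of 876 bp. None of the 35 had its nearest peak upstream within 3 kb, against 3.075% of genes of the whole table. The 4 windows printed here are the highest and lowest by log2 fold change among genes whose window lies inside a peak (CHD1, 0.52, and SMARCE1, −0.63) and among the 9 genes with no peak over the window and a promoter peak that begins within 1 kb downstream (RCOR1, 0.57, at 537 bp, and SMARCD2, −0.59, at 539 bp). They lie at chr5:98929008-98929257 on the minus strand for CHD1, chr17:40647819-40648068 on the minus strand for SMARCE1, chr14:102592399-102592648 on the plus strand for RCOR1 and chr17:63842686-63842935 on the minus strand for SMARCD2. Each runs 5′ to 3′ toward the start, and capitals mark the GC box GGGCGG on either strand.
CHD1: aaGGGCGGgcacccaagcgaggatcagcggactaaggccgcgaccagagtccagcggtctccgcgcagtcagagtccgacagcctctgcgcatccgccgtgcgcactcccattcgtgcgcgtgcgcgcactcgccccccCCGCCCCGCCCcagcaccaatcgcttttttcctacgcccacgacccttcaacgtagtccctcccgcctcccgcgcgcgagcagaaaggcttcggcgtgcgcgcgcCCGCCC
SMARCE1: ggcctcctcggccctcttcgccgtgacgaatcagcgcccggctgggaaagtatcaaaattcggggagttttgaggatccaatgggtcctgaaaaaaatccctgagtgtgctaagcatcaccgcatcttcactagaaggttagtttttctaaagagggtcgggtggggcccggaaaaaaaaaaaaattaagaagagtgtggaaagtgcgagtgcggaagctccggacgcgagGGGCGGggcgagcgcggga
RCOR1: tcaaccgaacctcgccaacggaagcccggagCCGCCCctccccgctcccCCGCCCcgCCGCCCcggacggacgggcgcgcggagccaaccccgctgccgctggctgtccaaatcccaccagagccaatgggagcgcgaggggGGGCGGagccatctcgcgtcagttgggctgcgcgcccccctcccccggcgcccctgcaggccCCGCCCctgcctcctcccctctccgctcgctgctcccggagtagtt
SMARCD2: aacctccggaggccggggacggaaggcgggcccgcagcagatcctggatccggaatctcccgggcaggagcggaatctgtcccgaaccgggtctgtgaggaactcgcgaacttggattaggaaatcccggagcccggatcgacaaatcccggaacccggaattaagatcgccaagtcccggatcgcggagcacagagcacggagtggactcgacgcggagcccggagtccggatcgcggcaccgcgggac

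The window of CHD1 held 4 GC boxes, 2 of them overlapping, that of RCOR1 5, that of SMARCE1 1 and that of SMARCD2 none. In all, 59.57% of the 47 windows held GGGCGG, against 42.31% of 27305 RefSeq promoters. The ETS motif CCGGAAG was in 12.77% against 8.815%, the RUNX core TGTGGT in 6.383% against 10.92% and the E-box CACGTG in 8.511% against 6.49%, all searched on both strands. The median number of CpG was 25 in the 47 windows and 11 in all promoters. A match is a string of letters and not a bound site.

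**Figure D2:**
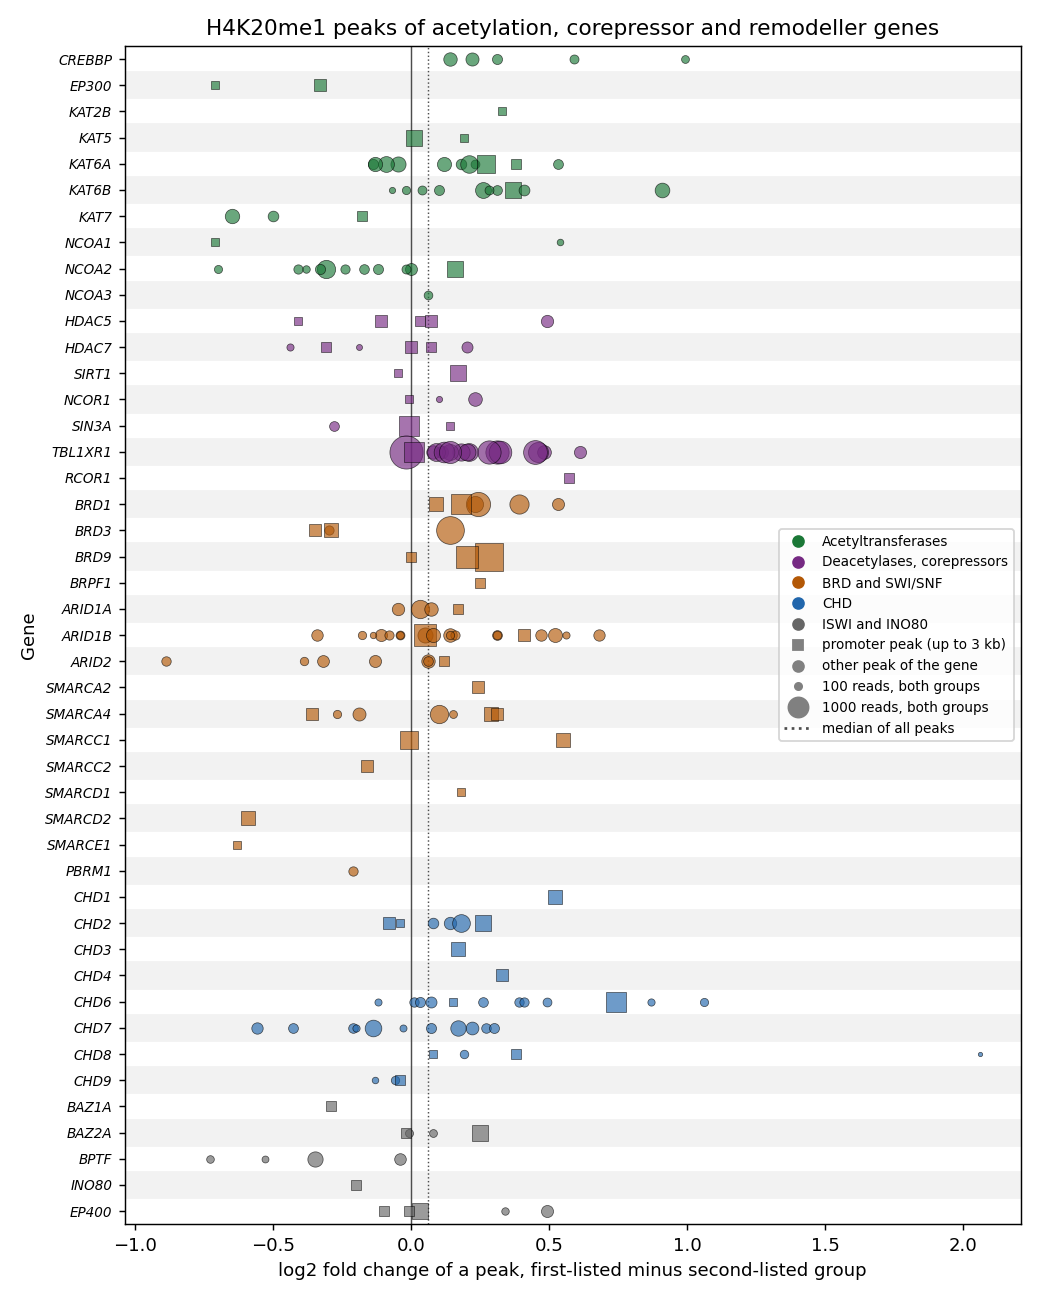
Log2 fold change, first-listed minus second-listed, of each of the 200 peaks (horizontal axis) by gene (rows), colored by class. Squares are promoter peaks, circles are other peaks, and area grows with the reads of both groups; the solid line marks 0 and the dotted line the median of all peaks, 0.06. Most points lie between −0.5 and 0.5, and CHD8, CHD6, CREBBP and KAT6B reach 2.06, 1.06, 0.99 and 0.91. Among genes with more than 1 peak, all peaks of EP300, KAT7, BPTF and CHD9 lie below 0.

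Among the acetyltransferases the paralogs CREBBP and EP300 stood on opposite sides. Both are broad coactivators that acetylate lysine 27 of histone H3. CREBBP had 5 peaks, all intronic, and each was higher in the first-listed group (0.14 to 0.99), with a summed log2 ratio of 0.32 (0.17 to 0.48, exact 95% interval as for all sums and peaks that follow). Its peak in intron 2 at chr16:3849181-3849839 had 82.14 scaled reads in the first-listed against 41.36 in the second-listed group, or 0.99 (0.44 to 1.56). Its nominal p in the authors' deposited table was 0.0197 and its adjusted p 0.914. A peak in intron 1 had 104.0 first-listed and 69.07 second-listed scaled reads (0.59, 0.14 to 1.04). EP300 had 2 peaks, both called promoter, with 39.95 and 122.8 first-listed against 65.34 and 154.3 second-listed scaled reads, and a summed log2 ratio of −0.43 (−0.73 to −0.14). Both EP300 peaks lie far inside the RefSeq gene, the nearer one 71106 bp from its main start.

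The paralogs KAT6A and KAT6B, MYST acetyltransferases known as MOZ and MORF, differed in the size of their ratios. KAT6B had 8 of 10 peaks above 0 and a summed log2 ratio of 0.37 (0.26 to 0.47). Its peak in intron 2, chr10:74871343-74872651, held 335.5 scaled reads in the first-listed against 177.3 in the second-listed group (0.91, 0.66 to 1.19), and a nominal p of 0.0120 and adjusted p of 0.878 in the authors' deposited table, the lowest among the 200 peaks. Per kb, that peak stood at 256.3 first-listed against 135.4 second-listed scaled reads. The promoter peak of KAT6B had 352.1 first-listed and 272.5 second-listed scaled reads (0.37, 0.14 to 0.60), so that start and body lay on the same side. KAT6A had 7 of 11 peaks above 0, between −0.14 and 0.53, and a summed log2 ratio of 0.11 (0.03 to 0.19), which is 0.00 with equal reads in peaks. The larger of its 2 promoter peaks, with 410.1 first-listed and 340.1 second-listed scaled reads, gave 0.27 (0.06 to 0.48).

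KAT7, known as HBO1, which acetylates histones at replication origins and gene bodies, was lower at all 3 peaks and had a summed log2 ratio of −0.50 (−0.68 to −0.31). Its intron 2 peak at chr17:49794087-49795889 had 190.0 scaled reads in the first-listed against 298.2 in the second-listed group (−0.65, −0.92 to −0.38). KAT7 lies on a stretch of chromosome 17 whose 935 peaks had a median of −0.18. KAT5, the acetyltransferase of the TIP60 complex, had 2 promoter peaks and a summed log2 ratio of 0.05 (−0.17 to 0.27), and KAT2B, known as PCAF, had 1 peak at 0.33 (−0.28 to 0.94).

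The NCOA genes encode the p160 coactivators of nuclear receptors. NCOA2 was lower in 9 of 11 peaks, with a summed log2 ratio of −0.18 (−0.28 to −0.08). Its largest peak, in intron 1 at chr8:70315524-70318694, had 359.5 scaled reads in the first-listed against 445.7 in the second-listed group (−0.31, −0.51 to −0.11). A further 4 peaks within introns of NCOA2 are listed under PRDM14, whose start is nearer, and 3 of these were above 0 and the other at −0.17, with a summed log2 ratio of 0.46 (0.27 to 0.65). Over all 15 peaks the ratio was −0.03 (−0.12 to 0.06), so the direction of NCOA2 rests on which gene its introns are counted for. NCOA1 had 2 peaks, at −0.71 and 0.54, and NCOA3 had 1 at 0.06.

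Over the 48 peaks of the 10 marked acetyltransferase genes the median was 0.05 (−0.06 with equal reads in peaks). Above 0 lay 26 peaks (54.17%) and below it 21. In each direction 5 (10.42%) lay past 0.5, beside 13.9% of all peaks upward and 8.71% downward.

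**Figure D3:**
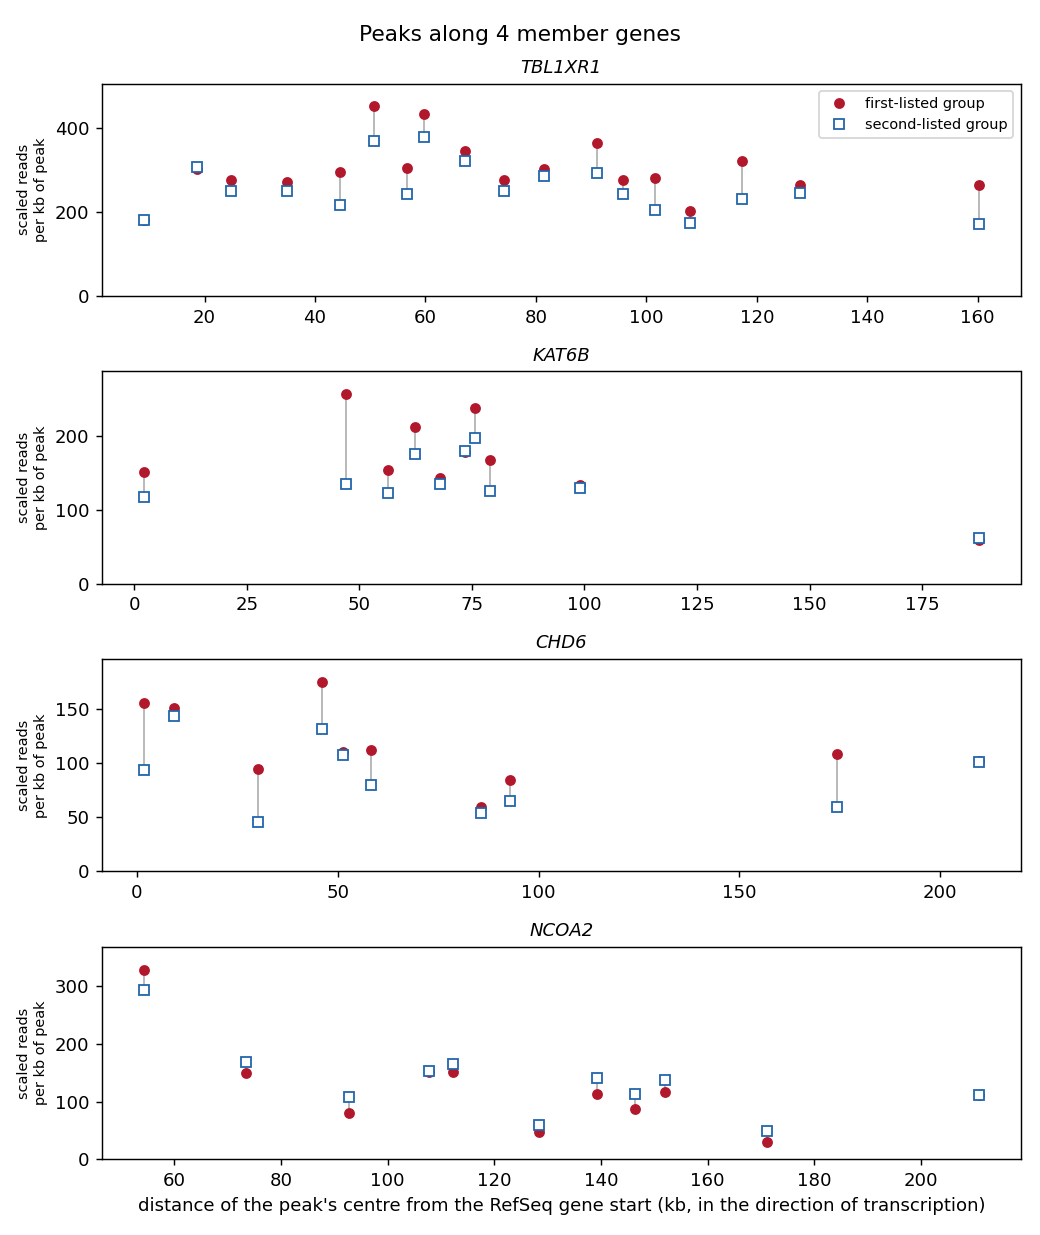
Scaled reads per kb of peak (vertical axes) in the first-listed group (filled circles) and the second-listed group (open squares) along TBL1XR1, KAT6B, CHD6 and NCOA2, by distance of the peak's centre from the RefSeq gene start in kb. Circles lie above squares at most positions of TBL1XR1 and at all 10 of CHD6, and below them at most positions of NCOA2; the 2 CHD6 peaks over 400 kb upstream are not drawn.

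Deacetylase and corepressor genes were led by TBL1XR1, the subunit of NCoR that directs the exchange of corepressors for coactivators. It held 18 peaks, from 9.0 to 160.2 kb downstream of its start, and more reads than any other listed gene, 9284 first-listed against 8366 second-listed reads. Its peaks held 181.0 to 451.2 scaled reads per kb (median 288.1) in the first-listed group, against 172.3 to 377.3 in the second-listed group (median 247.0). The median over all 200 peaks was 116.1 per kb first-listed against 111.2 second-listed. In 17 of the 18 peaks the first-listed group was higher, and the summed log2 ratio was 0.21 (0.16 to 0.25). With equal reads in peaks that ratio was 0.09, and 13 peaks lay above 0 and 5 below.

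The largest TBL1XR1 peak, in intron 1 at chr3:177181005-177185479, was also the highest of the class, with 1351.0 first-listed and 1370.0 second-listed scaled reads (−0.02, −0.13 to 0.09). Its promoter peak had 501.5 first-listed and 498.0 second-listed scaled reads (0.01, −0.17 to 0.19). The widest difference was 0.61 (0.30 to 0.94) in the peak farthest from the start, chr3:177041212-177041991, with 206.5 first-listed and 134.4 second-listed scaled reads. Peaks between gave 0.08 to 0.48 in no steady order, with 0.09, 0.08 and 0.11 at 67.2, 81.4 and 127.8 kb, and no trend with distance was tested. No peak of TBL1XR1 had a nominal p below 0.05 in the authors' deposited table.

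NCOR1, the scaffold that TBL1XR1 binds, had 3 peaks and a summed log2 ratio of 0.16 (−0.06 to 0.38). SIN3A, the scaffold of the SIN3 complex, gave −0.03 (−0.18 to 0.13), and the larger of its 2 promoter peaks had 491.1 scaled reads in either group. RCOR1, or CoREST, which joins the demethylase KDM1A to deacetylases, had a single promoter peak with 151.2 scaled reads in the first-listed against 101.8 in the second-listed group (0.57, 0.20 to 0.94). Only RCOR1 of these scaffolds had an interval clear of 0, and that interval covers counting error alone. The RCOR1 peak had a nominal p of 0.15 and an adjusted p of 0.998 in the authors' deposited table.

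The class IIa deacetylases HDAC5 and HDAC7, which bind MEF2 factors and shuttle between nucleus and cytoplasm, showed mixed peaks. HDAC5 ranged from −0.41 to 0.49 over 5 peaks (summed 0.07, −0.08 to 0.22), and HDAC7 from −0.44 to 0.20 over 6 (summed −0.05, −0.21 to 0.11). The HDAC7 peaks at −0.44 and −0.19 lie upstream of the nearest HDAC7 start, beyond promoter range, the one at −0.44 in an intron of another gene by the authors' annotation. SIRT1, an NAD-dependent deacetylase, gave 0.13 (−0.09 to 0.36) over 2 peaks. For the class as a whole, 27 of 38 peaks over 7 genes lay above 0 (71.05%, beside 60.89% of all peaks not distal intergenic). The class median was 0.12, which was 0.00 with equal reads in peaks. Past 0.5 lay 2 peaks upward (5.263%) and none downward, beside 13.9% and 8.71% of all peaks. TBL1XR1 supplied 17 of the 27.

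The bromodomain genes were split. BRD1, a scaffold of MYST acetyltransferase complexes, was higher at all 6 peaks (0.09 to 0.53), with 198.1 to 776.0 first-listed against 137.2 to 657.1 second-listed scaled reads, and a summed log2 ratio of 0.26 (0.18 to 0.34). BRD9, of the non-canonical SWI/SNF complex, gave 0.23 (0.13 to 0.33) over 3 peaks called promoter. The largest, chr5:860885-864241, had 989.1 first-listed and 814.6 second-listed scaled reads. That peak lies at the far end of the 29.06 kb gene from its RefSeq start. BRPF1, a relative of BRD1 in the same complexes, gave 0.25 (−0.14 to 0.64) in 1 peak. BRD3, a BET reader of acetylated histones, had 3 of 4 peaks below 0, between −0.35 and −0.29. Its largest peak, in intron 1 at chr9:134059973-134063414, had 996.0 first-listed and 903.9 second-listed scaled reads (0.14, 0.01 to 0.27), which brought the sum to −0.02 (−0.12 to 0.09).

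The SWI/SNF subunits showed as wide a range. ARID1B, which with ARID1A marks the canonical BAF complex, had the most peaks of any listed gene, with 13 of 20 above 0 and a summed log2 ratio of 0.15 (0.08 to 0.22). Its widest difference was in intron 5 at chr6:156980553-156981846, with 182.3 first-listed and 113.8 second-listed scaled reads (0.68, 0.34 to 1.03). ARID1A, with 4 peaks between −0.05 and 0.17, gave 0.04 (−0.09 to 0.18). ARID2, a subunit of the PBAF complex, had 4 of 7 peaks below 0 and a sum of −0.17 (−0.30 to −0.03). Its intron 3 peak at chr12:45751343-45751906 had 67.18 scaled reads in the first-listed against 123.6 in the second-listed group (−0.89, −1.34 to −0.45). In the authors' deposited table that peak had a nominal p of 0.0303 and an adjusted p of 0.963, and of the 7 peaks below 0.05 it was the 1 that was lower. Other ARID2 peaks in the same intron gave −0.32 and −0.13. Peaks called exon at chr12:45755971-45758719 and chr12:45774701-45776492 gave 0.06 each. The first of these lies between the intron 3 peaks and had 215.3 first-listed and 206.5 second-listed scaled reads.

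The ATPase SMARCA4, or BRG1, had 4 of 7 peaks above 0, between −0.36 and 0.31, and a sum of 0.05 (−0.06 to 0.16), and its paralog SMARCA2 gave 0.25 (−0.08 to 0.58) in 1 peak. The core subunit SMARCC1 had 2 peaks, both called promoter. That at chr3:47741950-47744887 had 245.6 first-listed and 167.7 second-listed scaled reads (0.55, 0.27 to 0.85). The other, with 390.7 first-listed and 396.2 second-listed scaled reads, gave −0.01 (−0.22 to 0.18). The lowest promoters of the class were those of the accessory subunits SMARCE1, with 60.97 first-listed and 94.35 second-listed scaled reads (−0.63, −1.11 to −0.15), and SMARCD2, with 187.4 first-listed and 280.1 second-listed scaled reads (−0.59, −0.85 to −0.31). SMARCC2, SMARCD1 and PBRM1, each with 1 peak, ranged from −0.21 to 0.18, and their intervals spanned 0. The median over the 60 BRD and SWI/SNF peaks was 0.08 (−0.04 with equal reads in peaks), with 36 above 0 (60.0%) and 23 below. Past 0.5 lay 5 upward (8.333%) and 3 downward (5.0%), beside 13.9% and 8.71% of all peaks.

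**Figure D4:**
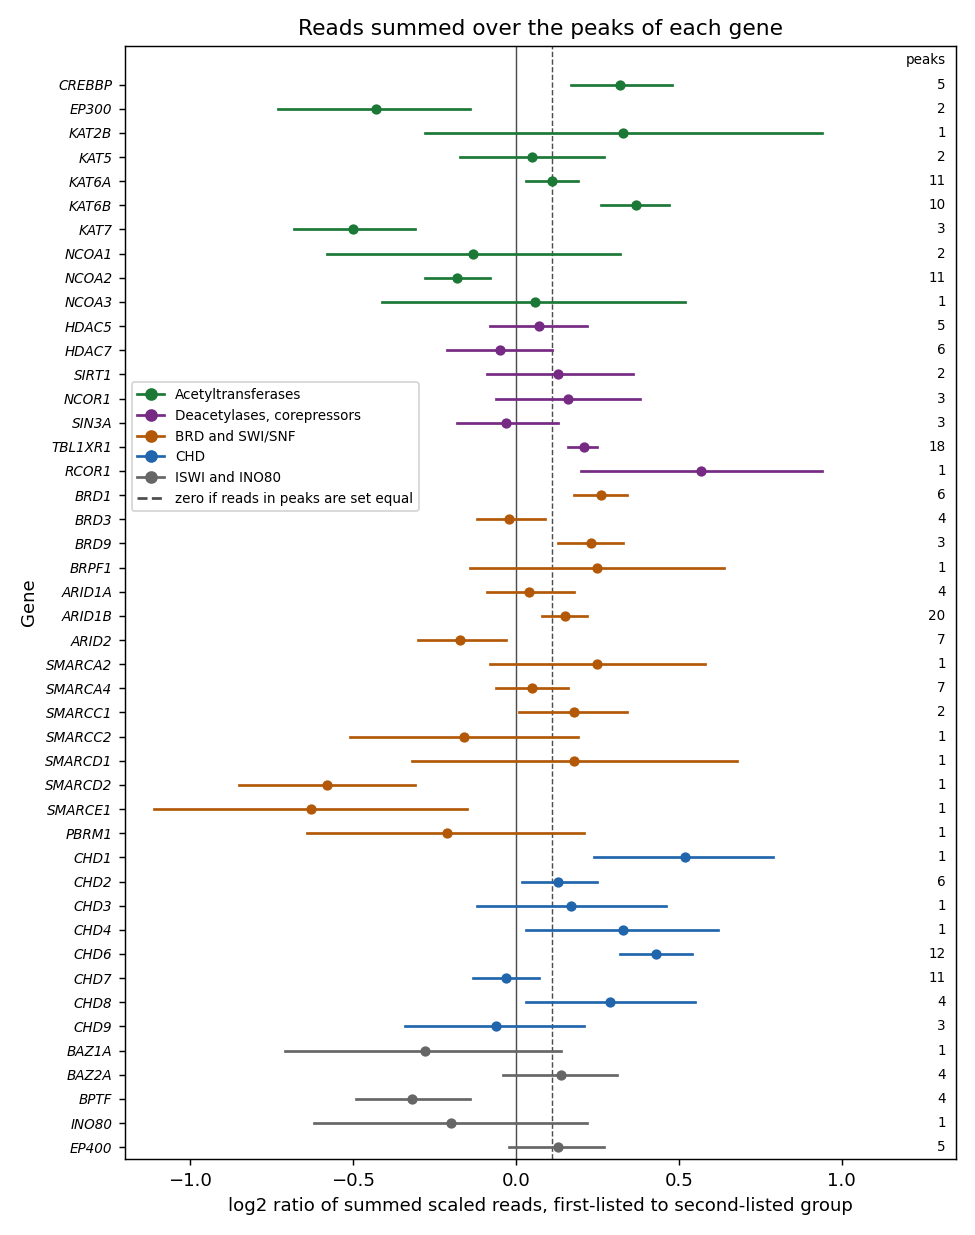
Log2 ratio of scaled reads summed over the peaks of each of the 45 marked genes, first-listed to second-listed group (horizontal axis), with exact 95% intervals for counting error and the number of peaks at the right. The solid line marks 0 and the dashed line, at 0.11, where 0 would lie with equal reads in peaks; KAT6B, CHD6, TBL1XR1 and BRD1, among others, have intervals above the dashed line, while those of KAT7, EP300, BPTF, SMARCD2, SMARCE1 and others lie below 0.

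All 8 listed CHD genes, which encode helicase-like remodellers with chromodomains, had a peak. CHD6 held 3 of the 7 listed peaks with a nominal p below 0.05, and its pair of intron peaks among them lay below the median signal of all peaks. The larger of its 2 promoter peaks, at chr20:41614849-41618588, held 580.0 scaled reads in the first-listed against 349.7 in the second-listed group (0.74, 0.54 to 0.92), the highest signal of the class. The intron 1 peak at chr20:41587655-41588643 had 93.70 first-listed and 45.25 second-listed scaled reads (1.06, 0.54 to 1.59), and the intron 25 peak at chr20:41443917-41444515 had 64.89 first-listed and 35.51 second-listed scaled reads (0.87, 0.27 to 1.49). The nominal p-values of these peaks in the authors' deposited table were 0.0322, 0.0124 and 0.0395, and their adjusted p-values 0.963, 0.878 and 0.964. Within the gene all 10 peaks lay above 0, with a summed log2 ratio of 0.46 (0.35 to 0.58). A further 2 peaks given to CHD6 lie over 400 kb upstream and gave 0.14 (−0.19 to 0.47). The median over all 532 peaks of chromosome 20 was 0.16.

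CHD7, which is mutated in CHARGE syndrome and is a paralog of CHD6, had 5 peaks above 0 and 6 below and a summed log2 ratio of −0.03 (−0.13 to 0.07), and its lowest peak, chr8:60723545-60724506 in intron 1, had 117.8 first-listed and 173.6 second-listed scaled reads (−0.56, −0.91 to −0.22). The counting intervals of the CHD6 and CHD7 sums did not overlap, but these cover no spread between libraries, and the difference was not tested. The median over all 1883 peaks of chromosome 8 was 0.12. CHD8 was above 0 at all 4 peaks (summed 0.29, 0.03 to 0.55), but its largest fold change, 2.06 in intron 4, rests on 12 first-listed and 3 second-listed reads (0.17 to 4.52), with a nominal p of 0.0350 in the authors' deposited table. CHD9 lay between −0.13 and −0.04 at 3 peaks. CHD1, a reader of trimethylated lysine 4 of histone H3, had 261.4 first-listed and 182.3 second-listed scaled reads at its promoter (0.52, 0.24 to 0.79), the window of which is printed above. CHD4 and CHD3, the ATPases of the NuRD deacetylase complex, gave 0.33 (0.03 to 0.62) and 0.17 (−0.12 to 0.46) at their promoters, and CHD2 gave 0.13 (0.02 to 0.25) over 6 peaks. In the class 27 of 39 peaks lay above 0 (69.23%, beside 60.89% of all peaks not distal intergenic). The class median was 0.15 (0.04 with equal reads in peaks). Past 0.5 lay 5 peaks upward (12.82%) and 1 downward (2.564%), beside 13.9% and 8.71% of all peaks.

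The ISWI and INO80 genes had a median of −0.02 over 15 peaks (−0.13 with equal reads in peaks), with 5 peaks above 0 (33.33%) and 10 below. As deposited theirs was the only class median below 0, while with equal reads in peaks those of the acetyltransferases and of the BRD and SWI/SNF genes lay below 0 as well. Other ISWI and INO80 genes, not on the list, went the other way. Their 27 peaks had a median of 0.18 (0.07 with equal reads in peaks), with 18 above 0. BPTF, the largest subunit of the NURF remodeller, was below 0 at all 4 intronic peaks and gave −0.32 (−0.49 to −0.14), and its largest peak, chr17:67855033-67857190, had 242.2 scaled reads in the first-listed against 308.7 in the second-listed group (−0.35, −0.60 to −0.11). EP400, an ATPase of the TIP60 complex, gave a sum of 0.13 (−0.02 to 0.27). Its strongest peak, 1 of 3 called promoter, had 326.3 first-listed and 319.6 second-listed scaled reads (0.03, −0.19 to 0.26). Its highest log2 fold change was in intron 2, with 195.4 first-listed and 139.1 second-listed scaled reads (0.49, 0.17 to 0.80). BAZ2A, of the NoRC complex that silences ribosomal DNA, gave 0.14 (−0.04 to 0.31) over 4 peaks. BAZ1A (−0.28, −0.71 to 0.14) and INO80 (−0.20, −0.62 to 0.22) had 1 promoter peak each.

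Several of the genes below 0 lie on the same stretch of chromosome 17. KAT7, SMARCD2, SMARCE1 and BPTF lie from 25 Mb on, as does HDAC5, whose sum was above 0. There 11 of 14 listed peaks were below 0, with a median of −0.38, and all 935 peaks of the table had a median of −0.18. That stretch held 6 of the 11 peaks past 0.5 downward, or 42.86% of its 14 listed peaks. Among all 935 peaks there, 639 lay below 0 and 200 (21.39%) lay past 0.5 downward, beside 8.71% of all peaks of the table. NCOR1 and CHD3, on chromosome 17 before 25 Mb, had a median of 0.14 over 4 peaks, as had all 112 peaks there. BRD3 lies on chromosome 9 from 40 Mb on (median of its 4 peaks −0.30, of all 580 peaks there −0.15), and NCOA1 on chromosome 2 up to 90 Mb (median of its 2 peaks −0.08, of all 651 peaks there −0.19). Without these stretches the median of the remaining 180 peaks was 0.11. Past 0.5 lay 16 of the 180 upward (8.889%) and 4 downward (2.222%), beside 13.9% and 8.71% of all peaks of the table. Those shares of all peaks still include the stretches. Past 0.5 downward lay 21.51% of all peaks in that of chromosome 2 and 20.17% in that of chromosome 9. No median or share of all peaks without the stretches was computed, so the values of the 180 peaks have no like background. The 4 were peaks of EP300, NCOA2, ARID2 and CHD7. The part of these stretches in the values of their genes was not tested.

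Other genes of the same families and complexes were read by the same rule. Of 148 such genes, 98 had a peak by symbol, and the median peak had 117.0 first-listed and 107.6 second-listed scaled reads. Their 279 peaks had a median of 0.13 (0.02 with equal reads in peaks). Of these, 183 lay above 0 (65.59%, beside 60.89% of all peaks not distal intergenic) and 93 below. By class the medians were 0.12 for acetyltransferases, 0.16 for deacetylases and corepressors, 0.14 for BRD and SWI/SNF, 0.02 for CHD and 0.18 for ISWI and INO80 genes. The CHD value rests on 8 peaks of 2 genes. The order of the classes was thus not that of the listed genes. A log2 difference of at least 0.5 was reached by 40 of the 279 peaks upward (14.34%) and 11 downward (3.943%), beside 13.9% and 8.71% of all peaks. Their count at an adjusted p below 0.05 was 0 in the authors' deposited table, where 13 peaks (4.659%, beside 5.06% of all peaks) had a nominal p below 0.05, all higher in the first-listed group. PHF20, a reader subunit of the NSL acetyltransferase complex, accounted for 3 of them. The widest was at PHF20 (chr20:35851126-35852470), with 156.5 first-listed and 74.03 second-listed scaled reads, or 1.08 (0.67 to 1.49), and with a nominal p of 0.00774 in the authors' deposited table.

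Over the whole series, 2791207 first-listed and 2682916 second-listed reads lay in peaks, with a median of 72 reads per peak in each. KMT5A itself had 3 peaks with log2 fold changes of 0.15 to 0.32, which measure the mark at the locus and neither the edit nor the enzyme, so they check nothing about the labels. Of 8 genes known to mark myeloid blasts or this leukemia, CD34, KIT, RUNX1, RUNX1T1 and SPI1 had 48 peaks between them and MPO, CEBPA and CD33 had none, while 1 of 6 marker genes of other cell types, ALB, had a peak. With no spiked-in DNA and no library without antibody in use here, an even loss of the mark over the genome would leave these values as they are. Fewer cells with the mark at a locus and less of the mark per cell cannot be told apart.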

How the data were processed

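H4K20me1 CUT&Tag of Kasumi-1 cells was read from 1 table of 25514 peaks. Per the submitters' processing notes, the authors used cutadapt, Bowtie2 and build hg38 for all 4 libraries, and name DESeq for 2 of them. The sources used here do not give versions, the peak caller, handling of duplicates or which libraries stand behind each column. The deposited values are log2 scaled reads per group, their log2 fold change, and a nominal (unadjusted) and an adjusted p-value, all by the authors. The meaning of the columns was settled from the values: the fold column equals first-listed minus second-listed within 0.01.

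Low log2 values (1.5 to 5.5) in the deposited columns were whole reads plus a constant (0 and −0.057) within 0.0051 in 100% of 5676 and 5851 cases. Recovered reads gave exact Clopper-Pearson 95% intervals for log2 ratios (scipy 1.17.1), which cover counting error only. This step was tested on simulated data. With 1 column per group no test across libraries could be made, and p-values are the authors' own. No difference had a replicate check. The labels do not state separate cultures for the libraries of a group.

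The 58 genes, their 5 classes and the 148 other genes were chosen with earlier results of these data known. Peaks follow the authors' nearest-gene symbol. Of 127 exon and intron peaks, 106 named a host gene number, which was the nearest gene in 104. Named peaks are, per class, the 3 highest and 3 lowest at or above the median signal, 1 per gene, those with a nominal p below 0.05, genes with 3 or more peaks, and the strongest peak. Other peaks were named after their values were seen, and further genes to account for the list. Promoters are from RefSeq (GRCh38.p14). Alternatives covered scaling, signal, position, host gene, chromosome stretches, lowest-step peaks and limits. A gene among the others of these families is not reported here.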

Additional observations from a re-analysis of the deposited data

How the results depend on the processing

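The median log2 fold change of 0.08 over the 200 peaks was −0.03 with equal reads in peaks, 0.05 for promoter peaks within 1 kb and 0.11 without the stretches of chromosomes 2, 9 and 17. The first value follows from the constant of 0.11 that this scaling subtracts, while the cause of the other changes was not tested. The 28 peaks that differed by at least 0.5 were 17 at or above the median signal, 8 in promoters, 6 in promoters within 1 kb and 2 with a limit of 1. The 7 peaks below a nominal p of 0.05 in the authors' deposited table were 3 at or above the median signal, 1 in promoters, 1 in promoters within 1 kb and 0 with a limit of 0.01. Fewer peaks or a stricter limit entered these counts, but at or above the median signal the shares were lower as well. There 17 of 163 peaks differed by at least 0.5, beside 28 of 200, and 3 of 163 had the nominal p, beside 7 of 200. The part of signal in this was not tested. The count of 0 below an adjusted p of 0.05 in the authors' deposited table stayed 0 at a limit of 0.1 and with the Benjamini-Hochberg adjustment recomputed over all peaks of the table. With equal reads in peaks, 36 of 37 named peaks stayed within their counting interval, and the strongest TBL1XR1 peak went to −0.13. As the same 0.11 is subtracted from every peak, that count reflects only how wide each interval is. Class medians ran from −0.06 to 0.16 for acetyltransferases, 0.00 to 0.14 for deacetylases and corepressors, −0.04 to 0.15 for BRD and SWI/SNF, 0.04 to 0.22 for CHD and −0.13 to −0.01 for ISWI and INO80 genes. No paired analysis was possible because the table holds 1 column per group, which also left no replicate to leave out. Peaks with few reads, such as that of CHD8 with 12 first-listed and 3 second-listed reads, are limited by depth.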
